A study of Mus musculus with 16 samples.

Results

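Prl2c2 encodes proliferin, a secreted glycoprotein of the prolactin and growth hormone family. Proliferin was found as a message that serum and growth factors induce in mouse fibroblast lines, and in the mouse placenta it is made by trophoblast giant cells. It carries mannose 6-phosphate, binds the mannose 6-phosphate receptor encoded by Igf2r and stimulates the migration of endothelial cells. In fibroblasts its transcription is known to respond to AP-1, a dimer of Fos and Jun type proteins, and to the glucocorticoid receptor, which meet at a composite element upstream of the gene. The genes described here are the row Prl2c2 and the other row whose symbol has the Prl2c pattern with 1 digit, Prl2c3, so 2 of the 12321 genes of the table. Prl2c2 was chosen by its own levels, selected on its change between growth types in these same libraries, so levels and fold changes of both genes are a description and carry no test.

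RNA was measured in LKR10, a cell line from a mouse lung adenocarcinoma, in 4 groups of 4 libraries. The groups were 3D shAnkrd35, 3D shGFP, 2D shAnkrd35 and 2D shGFP. In 3D the cells grew in medium with 0.5% methylcellulose, a viscous polymer that keeps cells from attaching, and in 2D they grew as a monolayer. Cells of all 4 groups carried a pLKO lentiviral short hairpin RNA, against Ankrd35 or, as control, against GFP, and all had passed through 48 h of selection in 4 µg/ml puromycin, followed by another 96 h of growth. LKR10 is 1 line, the hairpin is not described beyond its target, and the labels do not say whether libraries of a group came from separate cultures, so p-values below measure the spread between these libraries.

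The libraries held 13.82 to 28.72 M reads assigned to genes. Ankrd35, the gene the hairpin is aimed at, averaged 0.501 ± 0.0929 CPM in 3D shAnkrd35 and 0.597 ± 0.0546 CPM in 3D shGFP (SD, n = 4 each), and 0.187 ± 0.137 CPM in 2D shAnkrd35 and 0.219 ± 0.124 CPM in 2D shGFP. These ranges overlapped in both growth types and rest on 16 to 63 reads per group, so they do not settle the hairpin labels, and shAnkrd35 below means libraries labelled so. Of 14 markers of lung epithelium and adenocarcinoma, 8 were in the table, with a summed level of 6818 to 7378 CPM in 3D shAnkrd35, 6188 to 6370 CPM in 3D shGFP, 7250 to 8763 CPM in 2D shAnkrd35 and 5479 to 5951 CPM in 2D shGFP. They included the keratins Krt8, Krt18 and Krt19, whereas the lung lineage markers Nkx2-1, Sftpc, Sftpb, Sftpa1 and Scgb1a1 were not analysed here. Libraries differed most from their partners in 2D. Counts of 2D shAnkrd35 replicate 1 gave a chi-square per degree of freedom of 33.01 to 45.22 against the other libraries of its group, and 2D shGFP replicate 1 gave 10.57 to 32.25, whereas pairs within the 3D groups gave 2.85 to 10.53. Fold changes of Prl2c2 and Prl2c3 are given with and without 2D shAnkrd35 replicate 1, and for other genes the printed calls that were lost without it are named.

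Prl2c2 lies on the minus strand at chr13:12996125-13005383 of GRCm38 (mm10), a protein-coding gene with 6 exonic blocks in the GENCODE M21 annotation. Prl2c3 lies 196 kb away on the same strand at chr13:12790816-12800079. Another copy, Prl2c5, at chr13:13182715-13191923 on the plus strand, and Prl2c1, at chr13:27849342-27857788, were not analysed here. The coding sequences of Prl2c2 and Prl2c3 are both 675 bases long and 99.6% identical, with 3 substitutions. Counted from the first base of the start codon, with the base of Prl2c2 first and that of Prl2c3 last, they are T14C, C200A and T319G. Coding identity to Prl2c2 was 96.1% for Prl2c5, 92.4% for Prl2c1 and 55.0% for Prl, the gene of prolactin itself. The following stretch shows how little separates the copies. It holds coding bases 200 to 319 of each annotated transcript, spliced, and so contains 2 of the 3 substitutions. Capitals mark the 8 positions that the 3 copies do not share. The stretch spans chr13:12997464-13002141, minus strand, in Prl2c2, chr13:12792171-12796838, minus strand, in Prl2c3 and chr13:13185958-13190589, plus strand, in Prl2c5, with introns left out.
Prl2c2: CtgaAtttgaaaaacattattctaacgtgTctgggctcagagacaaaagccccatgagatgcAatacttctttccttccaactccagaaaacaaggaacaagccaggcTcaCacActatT
Prl2c3: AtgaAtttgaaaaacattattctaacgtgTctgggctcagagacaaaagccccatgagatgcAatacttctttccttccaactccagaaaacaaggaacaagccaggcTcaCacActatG
Prl2c5: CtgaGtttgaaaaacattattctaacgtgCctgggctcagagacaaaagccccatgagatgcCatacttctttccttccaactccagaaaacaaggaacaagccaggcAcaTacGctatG
Within these 120 bases Prl2c3 differs from Prl2c2 at 2 positions and Prl2c5 at 7.

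Reads of the Prl2c copies can therefore be told apart only at a few places. The annotated transcripts of Prl2c2 (842 bases) and Prl2c3 (857 bases) differ at 4 bases and 15 gap positions, and the longest stretch of the Prl2c2 transcript without a difference from Prl2c3 is 466 bases. Of all 50-base windows of the Prl2c2 transcript, 89.5% occur unchanged in the transcript of another gene and 80.1% in that of Prl2c3. Of 100-base windows, 66.4% occur in another gene, and of 150-base windows 50.9%. At 50 bases the other genes were Prl2c3, Prl2c5, Prl2c1 and the gene model Gm7040. The sources used here give neither the read length nor how reads that map to several places were treated. A level printed for Prl2c2 or Prl2c3 is thus uncertain as to the copy it came from, and may hold reads of Prl2c5.

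**Figure D1:**
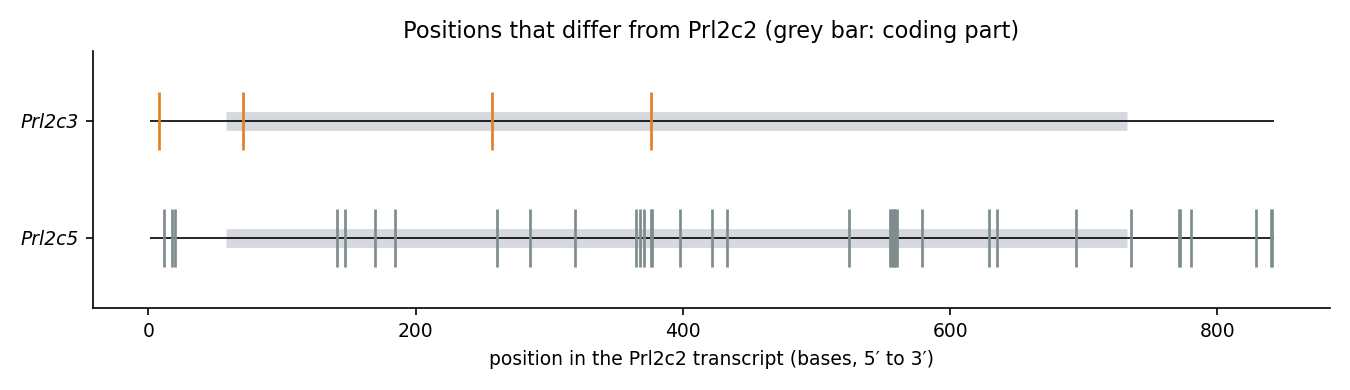
Map of the positions at which the transcripts of Prl2c3 (upper line) and Prl2c5 (lower line) differ from the 842-base transcript of Prl2c2 (x axis, bases from its 5′ end). Vertical ticks mark differing or missing bases and the grey bar the 675 coding bases, and bases present only in the other copy are not drawn. Prl2c3 has 3 ticks in the coding part and Prl2c5 has 26.

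Prl2c2 was an abundant message in 3D and near the detection limit in 2D. In 3D shAnkrd35 it had 118, 111, 118 and 113 CPM, from 2894, 2963, 1684 and 2167 reads. In 3D shGFP it had 58.0, 60.4, 58.5 and 60.3 CPM, from 1424, 1550, 1516 and 1795 reads. All 8 libraries from 3D lay far above all 8 from 2D, and within 3D the shAnkrd35 libraries all lay above the shGFP ones. In 2D shAnkrd35 it had 0.967, 1.33, 1.38 and 1.04 CPM, from 21, 28, 30 and 21 reads. In 2D shGFP it had 0.644, 0.471, 0.523 and 0.557 CPM, from 16, 9, 11 and 11 reads. The lowest 2D shAnkrd35 library thus lay above the highest 2D shGFP library, though on small numbers of reads. In order of level the groups were 3D shAnkrd35, 3D shGFP, 2D shAnkrd35 and 2D shGFP, and no neighbours in that order overlapped. This separation is not shown to set Prl2c2 apart, since differences between groups were common. At a limma adjusted p under 0.05, 70.4% of genes were called between growth types with shAnkrd35 and 67.2% with shGFP. Between hairpins, 29.7% were called in 3D and 57.9% in 2D. The share of genes whose groups did not overlap was not computed, here or for Prl2c3 and Prl below. In bulk RNA, more cells that make proliferin and more RNA per cell cannot be told apart.

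The place of Prl2c2 among all genes changed with the growth type. Per kilobase of transcript it stood at 137 CPM in 3D shAnkrd35, above 97.2% of the 12218 genes with a length, and at 70.4 CPM in 3D shGFP, above 93.5%. In 2D shAnkrd35 it stood at 1.4 CPM per kilobase, above 15.5% of genes, and in 2D shGFP at 0.652, above 7.3%. The spread between libraries was small in 3D, with an SD on the log2 scale of 0.04 in shAnkrd35 and 0.03 in shGFP. It was wider at the low counts of 2D, with 0.24 in shAnkrd35 and 0.16 in shGFP.

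Growth in 3D went with a 97.5-fold ratio of mean CPM with shAnkrd35 (115 ± 3.5 CPM in 3D and 1.18 ± 0.207 CPM in 2D, SD, n = 4 each) and a 108-fold ratio with shGFP (59.3 ± 1.25 CPM in 3D and 0.549 ± 0.0726 CPM in 2D). On the log2 scale of the fit, which adds a prior averaging 2 reads and so understates changes of low genes, 3D minus 2D was 6.52 ± 0.11 with shAnkrd35 and 6.55 ± 0.11 with shGFP (SE). With either hairpin this change, on which Prl2c2 was selected, was rank 1 from the highest of the 12320 genes tested. As background, 34.4% of those genes were called higher and 36.0% lower in 3D with shAnkrd35 at a limma adjusted p under 0.05 (70.4% in either direction), and 35.2% and 32.1% with shGFP (67.2%). The next highest differences, named after their values were seen, were those of Muc5ac, a gel-forming mucin, with shAnkrd35 (5.42) and of Serpina7, a plasma carrier of thyroid hormone, with shGFP (5.20). Without replicate 1 of 2D shAnkrd35 the value for Prl2c2 with shAnkrd35 was 6.43, and leaving out any single library kept the value with shGFP between 6.49 and 6.62. The filter on low values, at least 1 CPM with the prior in at least 4 libraries, was met by Prl2c3 through its 3D libraries alone, and in 2D shGFP both genes were under it.

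**Figure D2:**
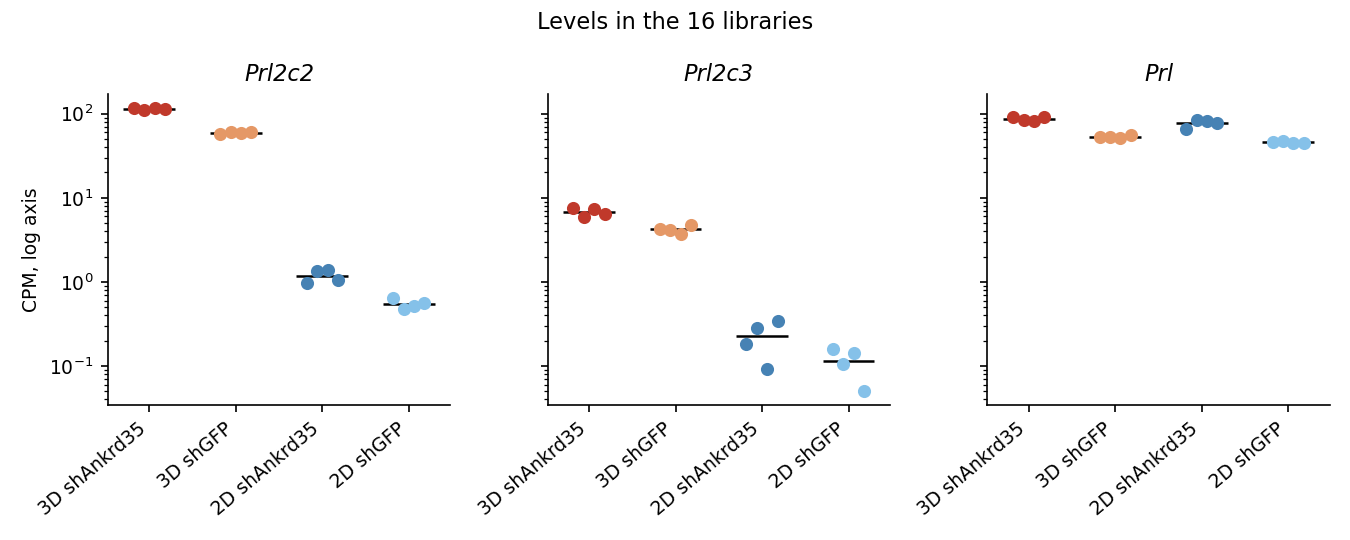
Levels of Prl2c2, Prl2c3 and Prl in each library as CPM on a log axis (y), by group (x), with 1 point per library and a bar at the mean of 4. Prl2c2 lies between 111 and 118 CPM in 3D shAnkrd35 and between 0.471 and 0.644 CPM in 2D shGFP, while Prl lies between 44.8 and 91.3 CPM in all libraries.

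The shAnkrd35 libraries held about the same multiple of the shGFP level in either growth type. The ratio of mean CPM was 1.94 in 3D and 2.15 in 2D, and the log2 fold change was 0.95 ± 0.11 in 3D and 0.98 ± 0.11 in 2D (SE). When each growth type was fitted on its own 8 libraries, the SE was 0.041 in 3D and 0.213 in 2D. The hairpin effect in 3D minus that in 2D was -0.03 ± 0.15, a comparison in which 35.8% of genes were called. The hairpin fold change of Prl2c2 lay within those of other genes. It was rank 187 of 12320 in 3D, where 15.0% of genes were called higher and 14.6% lower (29.7% in either direction). It was rank 275 in 2D, where 29.0% were called higher and 28.8% lower (57.9%). Without replicate 1 of 2D shAnkrd35, the value in 2D was 1.07 and the difference between the hairpin effects -0.11.

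**Figure D3:**
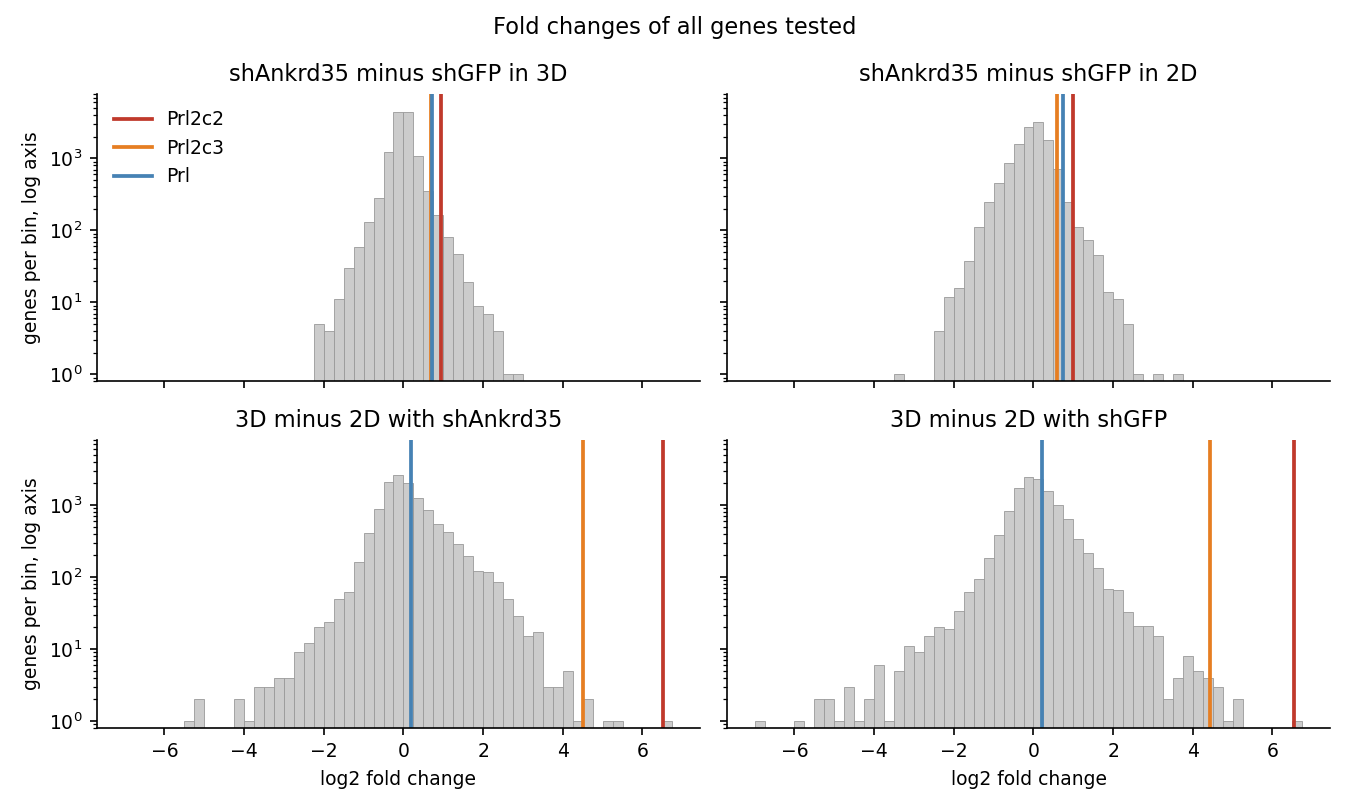
Histograms of log2 fold changes (x, bins of 0.25) of the 12320 genes tested (y, genes per bin on a log axis) in 4 comparisons, with vertical lines at Prl2c2, Prl2c3 and Prl. Prl2c2 stands at the upper end for 3D minus 2D (6.52 and 6.55), the change it was selected on. It stands inside the distribution for shAnkrd35 minus shGFP (0.95 and 0.98). In the first panel the line of Prl (0.71) covers that of Prl2c3 (0.68).

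Prl2c3 was listed at a fraction of the Prl2c2 level in each group. It had 7.62, 5.87, 7.37 and 6.39 CPM in 3D shAnkrd35, and 4.28, 4.13, 3.74 and 4.74 CPM in 3D shGFP. In 2D shAnkrd35 it had 0.184, 0.285, 0.0922 and 0.347 CPM, from 4, 6, 2 and 7 reads. In 2D shGFP it had 0.161, 0.105, 0.143 and 0.0507 CPM, from 4, 2, 3 and 1 reads. The 3D groups did not overlap with each other or with 2D, whereas the 2D groups overlapped with each other. Its 3D minus 2D log2 fold change was 4.52 ± 0.25 with shAnkrd35 (rank 5) and 4.43 ± 0.25 with shGFP (rank 8), and shAnkrd35 minus shGFP was 0.68 ± 0.25 in 3D and 0.59 ± 0.25 in 2D (SE). Without replicate 1 of 2D shAnkrd35 the values that use this group were 4.47 (growth, shAnkrd35) and 0.64 (hairpin, 2D). Per kilobase it stood above 45.7% of genes in 3D shAnkrd35, 33.2% in 3D shGFP, 2.5% in 2D shAnkrd35 and 0.7% in 2D shGFP.

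In pooled reads, the share of Prl2c3 was lower in 3D than in 2D. Since Prl2c2 was selected on its change between growth types, this difference of shares is a description and carries no weight. Of the pooled reads of both symbols, Prl2c3 had 5.56% in 3D shAnkrd35 (571 of 10279 reads, 95% Wilson interval 5.13 to 6.01%) and 6.67% in 3D shGFP (449 of 6734, 6.10 to 7.29%). It had 16% in 2D shAnkrd35 (19 of 119, 10.5 to 23.6%) and 17.5% in 2D shGFP (10 of 57, 9.82 to 29.4%). The intervals of the 3D groups lay below those of the 2D groups with the same hairpin, but they cover counting error only. Single 2D libraries, with 1 to 7 reads of Prl2c3, ran from 6.25 to 25%, and single 3D libraries from 5.0 to 7.28%, so these ranges overlapped. When both symbols were summed, so that a read exchanged between them has no effect, 3D minus 2D was 6.36 with shAnkrd35 and 6.41 with shGFP, and shAnkrd35 minus shGFP was 0.94 in 3D and 0.99 in 2D.

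Prl, the prolactin gene, was the only other gene of this family in the table, where 3 of 26 annotated family genes appeared. It had 91.2, 84.4, 82.4 and 91.3 CPM in 3D shAnkrd35, and 53.3, 52.4, 52.0 and 55.7 CPM in 3D shGFP. It had 65.2, 83.1, 82.9 and 77.6 CPM in 2D shAnkrd35, and 46.5, 47.1, 45.0 and 44.8 CPM in 2D shGFP. All shAnkrd35 libraries lay above all shGFP libraries of the same growth type, as for Prl2c2, but 3D and 2D lay close together. Prl rose with shAnkrd35 by 0.71 ± 0.07 in 3D (limma adjusted p = 4.02e-07) and by 0.74 ± 0.07 in 2D (limma adjusted p = 9.36e-08). Its 3D minus 2D difference was 0.18 ± 0.07 with shAnkrd35 (limma adjusted p = 0.0191) and 0.22 ± 0.07 with shGFP (limma adjusted p = 0.00714). The first of these missed the threshold without replicate 1 or 4 of 3D shAnkrd35 or replicate 1 of 2D shAnkrd35, at a common median and when fitted on its own 8 libraries, at 0.09 to 0.18. The second missed it at a common median and with trends of GC content and length removed, at 0.01 to 0.14. Per kilobase, Prl stood at 97.5 CPM and Prl2c2 at 137 CPM in 3D shAnkrd35, and Prl at 51.2 CPM and Prl2c2 at 0.652 CPM in 2D shGFP.

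RefSeq promoter windows of GRCm38.p6, 250 bases before to 50 after the start, were matched for 1 of the 2 genes, Prl2c3, and for Prl. They are shown because proliferin genes are known to be read from AP-1 and glucocorticoid elements. The promoter of Prl2c2 itself was not searched. Both strands were searched, and capitals mark the matches. The AP-1 motif was TGANTCA. The TATA box was TATAAA. The motif of GATA factors was AGATAA. The half-site of the glucocorticoid receptor was AGAACA. The Prl2c3 window is chr13:12800030-12800329, minus strand, and the Prl window is chr13:27057320-27057619, plus strand.
Prl2c3: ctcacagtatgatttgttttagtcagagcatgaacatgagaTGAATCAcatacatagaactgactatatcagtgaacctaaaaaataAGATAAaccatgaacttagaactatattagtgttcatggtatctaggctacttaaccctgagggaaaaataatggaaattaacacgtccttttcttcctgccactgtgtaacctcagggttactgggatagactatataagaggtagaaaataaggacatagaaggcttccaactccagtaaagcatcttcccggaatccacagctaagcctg
Prl: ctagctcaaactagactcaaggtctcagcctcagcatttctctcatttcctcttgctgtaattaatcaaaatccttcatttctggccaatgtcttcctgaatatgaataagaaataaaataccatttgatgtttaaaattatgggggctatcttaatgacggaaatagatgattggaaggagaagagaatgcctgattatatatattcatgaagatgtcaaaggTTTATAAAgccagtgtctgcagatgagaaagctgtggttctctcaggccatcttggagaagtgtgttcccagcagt
The Prl2c3 window held the AP-1 motif, as TGAATCA, from position -209, counted from the start, and the GATA motif from position -163. The window of Prl2c5, not printed, was 95.3% identical to that of Prl2c3. It held the same GATA motif but no AP-1 motif. The Prl window held the letters TATAAA from position -24, which overlap the same motif on the other strand. Only these exact letters were searched, so the variant TATATAAG in the Prl2c3 window was not counted. Of 32851 promoter windows of this length, 7.81% held the AP-1 motif, 11.2% the GATA motif, 13.6% the TATA box and 19% the glucocorticoid half-site. A match is letters in a window and is not shown to be bound. The half-site letters were in neither printed window. A link between these letters and the levels of the genes was not tested.

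Atf3, Jun, Fosl2 and Maff, genes of AP-1 proteins, fell in 3D with either hairpin. Of 10 AP-1 genes listed, 8 were tested. In 3D with shAnkrd35 0 were called higher and 7 lower, where 34.4% of all genes were called higher and 36.0% lower. Their median log2 fold change was -0.55, against -0.02 for all genes. With trends of GC content and length removed, 1 was higher and 4 lower. With shGFP, 2 were higher and 4 lower in 3D, where 35.2% of all genes were higher and 32.1% lower. The median was -0.38, against 0.03 for all genes. Atf3, a stress-induced partner of Jun, fell most, by 1.8 ± 0.19 with shAnkrd35 (limma adjusted p = 5.93e-07) and by 2.06 ± 0.19 with shGFP (limma adjusted p = 1.04e-07). It averaged 4.16 ± 1.35 CPM in 3D shAnkrd35 and 14.2 ± 2.07 CPM in 2D shAnkrd35, and 7.15 ± 0.795 CPM in 3D shGFP and 30.1 ± 3.19 CPM in 2D shGFP. Jun, the core subunit, fell by 0.58 ± 0.05 and 0.55 ± 0.05 with shAnkrd35 and shGFP, Fosl2 by 0.52 ± 0.06 and 0.69 ± 0.06, and the small Maf protein gene Maff by 0.91 ± 0.09 and 0.54 ± 0.09. Junb, which often restrains Jun, fell in 3D with shAnkrd35 by 0.60 ± 0.12 (not called, at -0.19, when trends with GC content and length were removed) and had -0.22 ± 0.12 with shGFP. Fosl1 fell slightly with shAnkrd35, with -0.21 ± 0.08, a value that was 0.15 when trends with GC content and length were removed. Its call was also lost under 5 other alternatives, at -0.21 to -0.12. Fosb ran both ways, with -0.41 ± 0.16 in 3D with shAnkrd35 and 0.66 ± 0.16 with shGFP, and Fos had -0.37 ± 0.40 with shAnkrd35 and 0.96 ± 0.40 with shGFP, a call of higher (limma adjusted p = 0.046). The Fos call was lost under 11 of the alternatives and Fosb's with shAnkrd35 under 5, both of them also without replicate 1 of 2D shAnkrd35.

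Between hairpins, the AP-1 calls were fewer. As background, 15.0% of all genes were called higher and 14.6% lower in 3D, and 29.0% and 28.8% in 2D. In 3D 0 of 8 were higher and 4 lower (Fosb -0.67 ± 0.16, Junb -0.39 ± 0.12, Atf3 -0.82 ± 0.19, Maff -0.45 ± 0.09), Junb not without replicate 4 of 3D shAnkrd35 or replicate 3 of 3D shGFP. In 2D 1 was higher (Fosb, 0.40 ± 0.16) and 2 lower (Fosl2 -0.17 ± 0.06, Atf3 -1.08 ± 0.19), and the calls of Fosb and Fosl2 were lost without single libraries of either hairpin, among them replicate 2 of 2D shAnkrd35, and Fosb's also without replicate 1. At a common median, 2 were higher and 1 lower in 2D, which turns the balance, and with GC and length trends removed 5 were lower.

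Of 12 listed genes of the glucocorticoid receptor and its targets, 10 were tested. With shAnkrd35, 5 were higher and 3 lower in 3D than in 2D (median 0.34, against -0.02 for all genes), where 34.4% of all genes were higher and 36.0% lower. With shGFP, 5 were higher and 2 lower (median 0.04, against 0.03), where 35.2% of all genes were higher and 32.1% lower. Sgk1, a kinase gene induced by glucocorticoids, was higher by 0.86 ± 0.08 and 1.74 ± 0.08 with shAnkrd35 and shGFP, and the clock gene Per1 by 0.45 ± 0.06 and 1.0 ± 0.06. Cebpd, a transcription factor gene, was lower, by -1.75 ± 0.11 and -0.86 ± 0.11. Errfi1, a feedback inhibitor of the EGF receptor, was higher with shGFP (0.68 ± 0.05) and had -0.01 ± 0.05 with shAnkrd35. Between hairpins in 3D, 1 was higher and 6 lower with shAnkrd35 (median -0.40), beside 15.0% and 14.6% of all genes. Among the lower were Sgk1 (-0.54 ± 0.08), Per1 (-0.67 ± 0.06) and Errfi1 (-0.48 ± 0.05). In 2D 5 were higher and 4 lower (median 0.04), beside 29.0% and 28.8% of all genes.

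**Figure D4:**
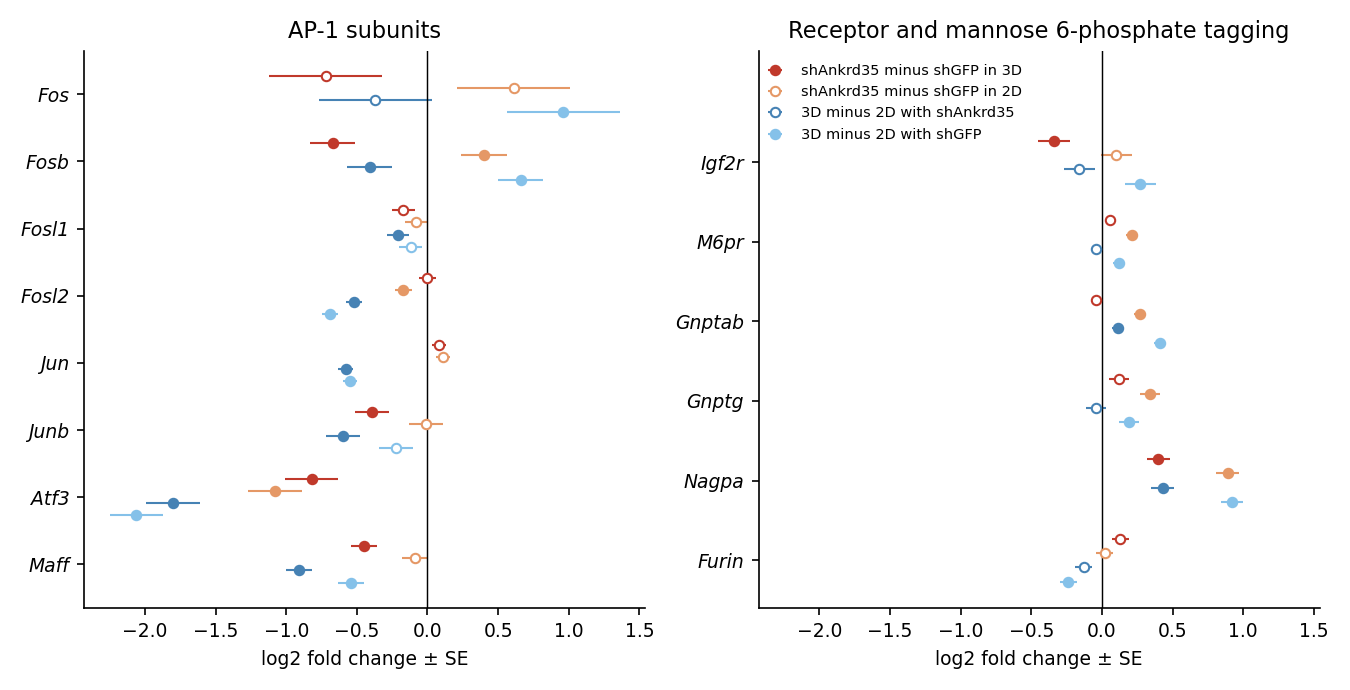
Log2 fold changes with their SE (x) of AP-1 subunit genes (left) and of the proliferin receptor and mannose 6-phosphate tagging genes (right) in 4 comparisons. Filled points passed a limma adjusted p under 0.05 and open points did not. Atf3 lies between -2.06 and -0.82 in all 4, and Igf2r between -0.34 and 0.27.

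Igf2r, the gene of the receptor that binds proliferin through mannose 6-phosphate, was expressed in all 4 groups and moved little. It averaged 37.8 ± 3.14 CPM in 3D shAnkrd35 and 47.7 ± 2.79 CPM in 3D shGFP, and 42.9 ± 9.03 CPM in 2D shAnkrd35 and 39.5 ± 3.52 CPM in 2D shGFP (SD, n = 4 each). In 2D shAnkrd35, replicate 1 had 56.3 CPM and the others 37.0 to 39.6 CPM. It fell with shAnkrd35 in 3D by 0.34 ± 0.11 (limma adjusted p = 0.0277) and had 0.10 ± 0.11 in 2D (limma adjusted p = 0.438). Its 3D minus 2D difference was 0.27 ± 0.11 with shGFP (limma adjusted p = 0.0347) and -0.16 ± 0.11 with shAnkrd35 (limma adjusted p = 0.188). The call between hairpins in 3D was lost without replicates 1, 2 or 3 of 3D shAnkrd35 or 1, 3 or 4 of 3D shGFP, at -0.34 to -0.30. The call with shGFP between growth types was lost without those 3 libraries of 3D shGFP, without replicates 1, 2 or 4 of 2D shGFP, with a replicate block, and at a common median, at 0.20 to 0.28.

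The genes that place the mannose 6-phosphate mark were measured as well. This group has 6 genes, Igf2r and the second receptor M6pr included. In 3D with shAnkrd35, 2 of the 6 were higher and 0 lower, beside 34.4% and 36.0% of all genes. With shGFP 5 were higher and 1 lower, beside 35.2% and 32.1%. At a common median, 3 of the 6 were lower with shAnkrd35, and 2 were higher with shGFP. Nagpa, which uncovers the mannose 6-phosphate, rose by 0.43 ± 0.08 with shAnkrd35 and 0.92 ± 0.08 with shGFP, and Gnptab, the catalytic subunit of the enzyme that adds it, by 0.11 ± 0.04 and 0.41 ± 0.04. Gnptg, a further subunit, rose with shGFP by 0.19 ± 0.07 and had -0.04 ± 0.07 with shAnkrd35. M6pr rose with shGFP by 0.12 ± 0.04 and had -0.04 ± 0.04 with shAnkrd35. These small calls were lost under some alternatives, that of Gnptab with shAnkrd35 under 5 (0.01 to 0.11), that of Gnptg under 4 (0.11 to 0.17) and that of M6pr under 2 (0.02 to 0.04). Furin, a processing protease gene, fell with shGFP by 0.24 ± 0.06, a value that was 0.01 when trends with GC content and length were removed. With shAnkrd35 against shGFP, 1 was higher and 1 lower in 3D (2 and 1 without replicate 1 of 2D shAnkrd35), beside 15.0% and 14.6% of all genes. In 2D 4 were higher and 0 lower, beside 29.0% and 28.8%. Ghr, the growth hormone receptor gene, was the single measured gene of the prolactin receptor family, at 9.01 ± 0.806 CPM in 3D shAnkrd35 and 6.0 ± 0.961 CPM in 2D shAnkrd35, but 7.76 ± 0.486 CPM in 3D shGFP and 8.81 ± 2.01 CPM in 2D shGFP. Its 3D minus 2D value was 0.59 ± 0.14 with shAnkrd35, a call of higher that was -0.04 with trends of GC content and length removed, and -0.16 ± 0.14 with shGFP, not called. Prlr was not analysed here.

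Growth factors that can induce proliferin in fibroblasts, with their receptors, gave 25 tested genes of 28. In 3D with shAnkrd35, 10 were higher and 12 lower (median -0.12), beside 34.4% and 36.0% of all genes. With shGFP 8 were higher and 10 lower (median 0.03), beside 35.2% and 32.1%. Fgf1, a fibroblast growth factor, was higher by 1.01 ± 0.06 and 1.27 ± 0.06, and its receptor gene Fgfr2 by 0.43 ± 0.07 and 1.33 ± 0.07, with shAnkrd35 and shGFP. Tgfb3 was lower by -1.18 ± 0.06 and -0.75 ± 0.06, and the receptor gene Tgfbr2 by -0.84 ± 0.04 and -0.77 ± 0.04. Between hairpins, 0 were higher and 8 lower in 3D, beside 15.0% and 14.6% of all genes. In 2D 5 were higher and 11 lower (7 lower with a filter of 5 CPM on the mean), beside 29.0% and 28.8%.

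Proliferin acts on endothelial cells, so other angiogenic factors were counted too. Of 17 tested of 20, 7 were higher and 9 lower in 3D with shAnkrd35 (median -0.28), beside 34.4% and 36.0% of all genes. With shGFP 6 were higher and 8 lower (median 0.02), beside 35.2% and 32.1%. With a filter of 5 CPM on the mean the higher ones were 4 with shAnkrd35 and 3 with shGFP. Angpt2, a ligand of the Tie receptors, was higher by 1.12 ± 0.17 and 3.04 ± 0.17, whereas Pgf, a relative of VEGF (-1.34 ± 0.09 and -0.96 ± 0.09), Sphk1, which makes sphingosine phosphate (-2.02 ± 0.09 and -1.38 ± 0.09), and the matrix protein gene Ctgf (-3.84 ± 0.13 and -2.99 ± 0.13) were lower. Of 7 tested inhibitors of angiogenesis of 12, 1 was higher and 4 lower in 3D with shAnkrd35, and 0 higher and 4 lower with shGFP. Thbs1, thrombospondin, was lower by -1.82 ± 0.06 and -1.18 ± 0.06, Timp3 by -1.67 ± 0.07 and -2.43 ± 0.07, and Serpinf1 by -1.95 ± 0.32 and -3.80 ± 0.32, while Col18a1, the source of endostatin, had 0.38 ± 0.04 and -0.02 ± 0.04. With shAnkrd35 against shGFP, 3 angiogenic factors were higher and 4 lower in 3D, and 8 higher (5 with that filter) and 4 lower in 2D. Among inhibitors, 0 were higher and 3 lower in 3D, and 0 higher and 5 lower in 2D. The shares of all genes between hairpins were 15.0% higher and 14.6% lower in 3D, and 29.0% and 28.8% in 2D.

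Other genes of trophoblast and placenta were mostly outside the table. Of 32 listed, 9 were in the table, and 23, among them the giant cell regulator gene Hand1, were not analysed here. In 3D with shAnkrd35 1 was higher and 6 lower, beside 34.4% and 36.0% of all genes. With shGFP 2 were higher and 6 lower, beside 35.2% and 32.1%. With a filter of 5 CPM on the mean, 4 were lower with either hairpin. Their summed level was 662 to 745 CPM in 3D shAnkrd35, 618 to 660 CPM in 3D shGFP, 819 to 866 CPM in 2D shAnkrd35 and 757 to 819 CPM in 2D shGFP. Plet1, a surface protein gene of trophoblast and epithelial progenitors, was higher in 3D by 1.63 ± 0.13 and 1.41 ± 0.13 with shAnkrd35 and shGFP, and higher with shAnkrd35 by 1.11 ± 0.13 in 3D and 0.89 ± 0.13 in 2D. Ets2 (-0.15 ± 0.04 and -0.53 ± 0.04), Bmp4 (-1.10 ± 0.06 and -0.36 ± 0.06) and Gata3 (-0.75 ± 0.16 and -1.91 ± 0.16) were lower in 3D, Ets2 with shAnkrd35 at 0.10 when trends with GC content and length were removed. Markers of other cells were few. Of 7 macrophage markers 2 were in the table, with 2.88 to 16.6 CPM summed in 3D shAnkrd35, 5.08 to 6.82 in 3D shGFP, 4.19 to 12.3 in 2D shAnkrd35 and 3.29 to 4.39 in 2D shGFP, and of 7 endothelial markers 1 was, at 0.662 to 1.66 CPM. The 9 fibroblast markers in the table, of 14, summed to 3588 to 3840 CPM in 3D shAnkrd35, 3438 to 3521 in 3D shGFP, 4293 to 5001 in 2D shAnkrd35 and 4212 to 4673 in 2D shGFP, and the part of these cells in the level of Prl2c2 was not tested. Nearly all of that sum was Vim, vimentin, with 3670 ± 133 CPM in 3D shAnkrd35, 3422 ± 36.6 in 3D shGFP, 4448 ± 313 in 2D shAnkrd35 and 4431 ± 221 in 2D shGFP. Of the 9, 5 were lower and 1, the collagen gene Col6a3, was higher in 3D with either hairpin (2.18 ± 0.17 with shAnkrd35 and 0.45 ± 0.17 with shGFP, the second lost under 7 alternatives). Of all genes, 36.0% were lower and 34.4% higher with shAnkrd35, and 32.1% and 35.2% with shGFP.

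The genes around Prl2c2 were listed by position, and a comparison with Prl2c2 itself carries no weight, since Prl2c2 was selected on this change. Within 2 Mb, 15 other genes outside the Prl2c group were tested. Their 3D minus 2D log2 fold changes ran from -0.30 to 2.37 with shAnkrd35 (10 called higher, 1 lower, beside 34.4% and 36.0% of all genes). With shGFP they ran from -0.85 to 1.17 (7 called higher, 5 lower, beside 35.2% and 32.1%). The nearest were the pseudogene Gpr137b-ps (0.35 ± 0.18 with shAnkrd35 and -0.05 ± 0.18 with shGFP) and Gpr137b, a lysosomal membrane protein gene (1.10 ± 0.05 and 0.73 ± 0.05). Ero1lb, an oxidase gene of the endoplasmic reticulum, had 0.32 ± 0.13 and -0.53 ± 0.13, Lyst, a lysosomal trafficking gene, 0.40 ± 0.11 and -0.30 ± 0.11, and Nid1, a basement membrane gene, 1.70 ± 0.17 and 0.78 ± 0.17. The Ero1lb call with shAnkrd35 was lost under 6 alternatives and the Lyst call with shGFP under 4. Nid1 was also higher with shAnkrd35, by 1.34 ± 0.17 in 3D and 0.42 ± 0.17 in 2D, and the call in 2D was lost under 13 alternatives, replicate 1 of 2D shAnkrd35 left out among them, at 0.33 to 0.42.

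**Figure D5:**
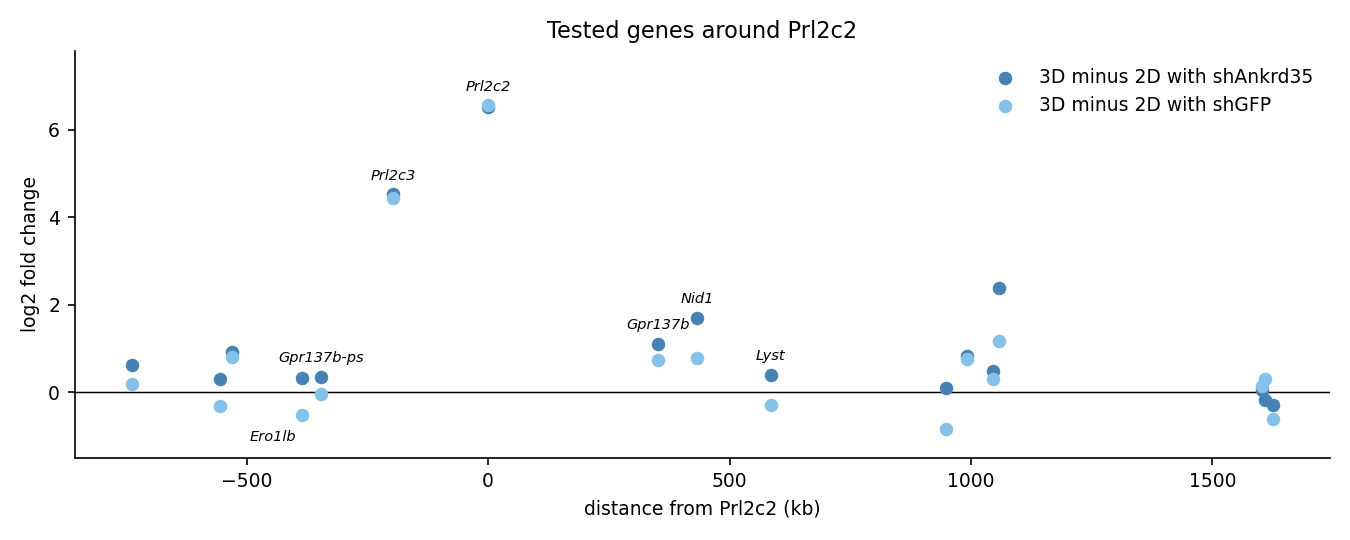
Log2 fold changes, 3D minus 2D (y), of the tested genes within 2 Mb of Prl2c2 against their distance from it in kb (x), with shAnkrd35 in dark blue and shGFP in light blue. Prl2c2 (6.52 and 6.55) and Prl2c3 (4.52 and 4.43) are drawn with the 15 other genes, which lie between -0.85 and 2.37.

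Across the 16 libraries, Prl2c2 followed the growth type so closely that many genes matched it. Pearson's r of log2 values was at least 0.95 for 230 genes and at most -0.95 for 354. Of named genes averaging 5 CPM or more, the 8 closest were Wnk4 (r = 0.996), Sgsm3 (0.993), Meltf (0.993), Rnase4 (0.992), Ngef (0.991), Plekha6 (0.991), Sytl2 (0.989) and Alcam (0.988), and the 4 most opposed were Aldh1l2 (-0.997), Pmm1 (-0.994), Csf1 (-0.993) and Dusp8 (-0.993). Prl2c3 had 0.989 and Prl 0.400. The 16 points share the step between 3D and 2D, and when ranks were used (Spearman) 0 of these 8 and 0 of these 4 were again among the closest. Wnk4, a kinase gene of ion transport, had 69.6 ± 3.92 CPM in 3D shAnkrd35, 53.8 ± 1.63 in 3D shGFP, 16.1 ± 0.949 in 2D shAnkrd35 and 12.6 ± 1.08 in 2D shGFP, the same order of groups as Prl2c2 over a narrower range. Aldh1l2, a mitochondrial folate enzyme gene, had 5.78 ± 0.554, 7.20 ± 0.526, 193 ± 13.7 and 282 ± 9.99 CPM in these groups. For deviations from the group means, the highest r were those of Atp6ap1 (0.914), Anxa2 (0.911), Rps3 (0.903) and Eef1g (0.900), of which Rps3 and Eef1g were lower in 3D. Prl2c2 deviated mostly in 2D, where its reads were few (log2 SD 0.24 with shAnkrd35 and 0.16 with shGFP, against 0.04 and 0.03 in 3D). These 4 were picked as the highest of all such genes, and this r was not computed without replicate 1 of 2D shAnkrd35.

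Genes with both sides of the Prl2c2 pattern were counted among the 12320 tested. The hairpin limits were the values of Prl2c2 itself, and Prl2c2 was selected on its change between growth types. The count is therefore a description and carries no weight. The number of genes that would share both sides by chance was not computed. Hairpin fold changes at least those of Prl2c2 in both growth types were found in 104 genes, Prl2c2 included. A 3D minus 2D log2 fold change of at least 2 with both hairpins was found in 108. The genes with both, named after their values were seen, were, besides Prl2c2, 7 in number. They were Agt, the angiotensin precursor, Lgals4, a galectin gene, Tjp3, a tight junction gene, the myosin genes Myo7b and Myo15b, Ckmt1, a mitochondrial creatine kinase gene, and an unnamed gene model. In 3D, Agt came nearest to Prl2c2 in level, with mean values of 93.3 CPM in 3D shAnkrd35, 41.7 in 3D shGFP, 8.55 in 2D shAnkrd35 and 1.74 in 2D shGFP. In 2D it stood above Prl2c2, and others of the 7 came nearer. Its 3D minus 2D log2 fold change was 3.44 with shAnkrd35 and 4.52 with shGFP, below that of Prl2c2.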

How the data were processed

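The labels' protocols describe oligo(dT) selection of RNA and random hexamer priming. The submitters' processing notes name mm10 and, as tools, STAR 2.5.1b, Trimmomatic 0.38 and edgeR. How reads were counted, with which annotation and whether by strand is not given in the sources used here. The deposited values are log2 CPM, computed by the authors on effective library sizes with a prior averaging 2 reads, in 16 columns (0 of other samples). Taking off the prior gave whole reads for 100% of values in each library, within 0.01 reads, and from these CPM without the prior was computed.

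limma 3.58.1 (R 4.3.3, statmod 1.5.0) with trend and robust fitting was run on the log2 values of 12320 genes with at least 1 CPM in at least 4 libraries. All 16 libraries entered 1 model with a mean for each of the 4 groups. Benjamini-Hochberg adjustment was made within a comparison, and genes were called under 0.05. The steps were tested on simulated data. The design had assumed counts or a linear unit, and no further pseudocount was added. The members and gene lists were chosen with earlier results of these data known. Named genes are Ankrd35, all tested genes of the prolactin, receptor, mannose 6-phosphate and AP-1 lists, and the 4 with the smallest p of each other list. To these come the 8 most and 4 least correlated with Prl2c2, the 4 most correlated within groups, and the 3 neighbours on each side. Fibroblast, macrophage and endothelial genes are given mainly as summed levels. Of the symbols, 12218 matched GENCODE M21. Alternatives were scaling, filters, prior, fitting, GC and length trends, a replicate block, summing of copies, and leaving out each library.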

Additional observations from a re-analysis of the deposited data

Results flagged for a closer look

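Neither Prl2c2, Prl2c3 nor Prl had a library far from the others of its group. Over all 71 named genes, 1 library of 4 lay farther from the rest than Dixon's 95% critical value in 23 of 284 pairs of gene and group, and chance flags about 1 in 20. In 3D shAnkrd35 these were Gnptg (33.3 CPM, highest, replicate 3), Nagpa (31.3 CPM, lowest, replicate 3), Fosb (5.35 CPM, lowest, replicate 4), Fosl1 (50.2 CPM, lowest, replicate 4), Junb (100 CPM, lowest, replicate 4), Pdgfrb (9.12 CPM, highest, replicate 3), Lyz2 (8.83 CPM, highest, replicate 4) and Ero1lb (3.69 CPM, highest, replicate 4). In 3D shGFP these were Fosl1 (58.2 CPM, lowest, replicate 4), Per1 (81.5 CPM, lowest, replicate 4), Krt18 (1840 CPM, lowest, replicate 1) and Atp6ap1 (137 CPM, highest, replicate 4). CPM were rounded before this check. The other 3D shGFP libraries all had 136 CPM of Atp6ap1 (SD of the group 0.462 CPM), so its flag may come from the rounding. In 2D shAnkrd35 these were Igf2r (56.3 CPM, highest, replicate 1), Jun (49 CPM, highest, replicate 2), Maff (63.7 CPM, lowest, replicate 1), Tgfbr2 (329 CPM, highest, replicate 1), Tgfb3 (22.1 CPM, lowest, replicate 2), Wnk4 (17.5 CPM, highest, replicate 1) and Gpr137b-ps (2.9 CPM, highest, replicate 2). In 2D shGFP these were Gnptg (26 CPM, highest, replicate 1), Krt7 (0.926 CPM, highest, replicate 1), Vim (4102 CPM, lowest, replicate 2) and Csf1 (212 CPM, lowest, replicate 4).

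The hairpin effect differed between growth types, by limma's test of the difference (adjusted p under 0.05), for 38 of the 71 named genes. The value given is the log2 hairpin effect in 3D minus that in 2D, and 35.8% of all genes tested were called in this comparison. It was negative for Angpt2 (-1.92), Fosb (-1.07), Cd68 (-1.07), Fgfr2 (-0.90), Cebpd (-0.89), Sgk1 (-0.88), Acta2 (-0.88), Ctgf (-0.85), Bmp4 (-0.75), Errfi1 (-0.69), Sphk1 (-0.64), Thbs1 (-0.64), Per1 (-0.55), Pdgfrb (-0.55), Meltf (-0.55), Nagpa (-0.49), Igf2r (-0.44), Krt18 (-0.44), Tgfb3 (-0.42), Pgf (-0.38), Atp6ap1 (-0.38), Maff (-0.36), Gnptab (-0.31), Hmga2 (-0.28), Fgf1 (-0.27), Csf1 (-0.21) and M6pr (-0.16). It was positive for Serpinf1 (1.85), Col6a3 (1.73), Gata3 (1.16), Nid1 (0.92), Ero1lb (0.84), Timp3 (0.75), Ghr (0.74), Lyst (0.70), Col18a1 (0.40), Ets2 (0.38) and Gpr137b (0.37). Several calls were lost under alternatives, that of Maff under 15 (-0.37 to -0.18), Csf1 under 13, Igf2r under 10, Meltf under 9, Cd68 under 8, M6pr under 6, Fgf1 under 4, Pgf under 2 and Krt18 under 1. For Prl2c2 and Prl2c3 this difference was not tested, and stood at -0.03 ± 0.15 and 0.09 ± 0.36.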

How the results depend on the processing

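All alternatives kept the direction of the 4 Prl2c2 fold changes. Of 134 alternative values for Prl2c2, 4 moved by more than the spread between libraries. With trends of GC content and length removed, shAnkrd35 minus shGFP in 3D was 1.04, and 3D minus 2D was 5.97 with shAnkrd35 and 5.99 with shGFP. The ratio of mean CPM, without the prior that understates changes of low genes, gave 6.76 for 3D minus 2D with shGFP. The cause of the moves with GC and length trends removed was not tested. Leaving out single libraries gave 0.94 to 0.97 (hairpin, 3D), 0.91 to 1.07 (hairpin, 2D), 6.43 to 6.59 (growth, shAnkrd35) and 6.49 to 6.62 (growth, shGFP). The labels do not say whether replicate numbers pair the libraries. Correlations of same-numbered deviations ran from -0.48 to 0.21, which cannot settle it, since each group has 4 libraries only. The replicate block left the Prl2c2 values at 0.95, 0.98, 6.52 and 6.55. For Prl2c3, 3D minus 2D was 3.95 and 3.87 with GC and length trends removed, and with shGFP 5.03 with a prior of 0.5 reads and 5.20 without it. Scaling by the library total moved the median of all genes to 0.15 (3D minus 2D, shGFP), with Prl2c2 6.51 above it, and a common median moved it to -0.11 (shAnkrd35), with Prl2c2 6.53 above it. Calls in 3D minus 2D with shGFP split into 4331 higher and 3954 lower, but 5569 and 2927 when scaled by the total and 3647 and 4557 at a common median. With shAnkrd35 they split into 4235 and 4441, against 4999 and 3469 scaled by the total and 3620 and 5285 at a common median. Of 3094 list counts under alternatives, 161 moved past 1.5 times. Of 5729 values of named gene calls, 231 missed the threshold and 6 changed sign, all with GC and length trends removed. They were Ghr (-0.04), Fosl1 (0.15), Ets2 (0.10) and Atp6ap1 (0.13) for 3D minus 2D with shAnkrd35, Furin (0.01) for that with shGFP, and Sgsm3 (-0.06) for the hairpin in 2D. Without replicate 1 of 2D shAnkrd35, 5 of the 8 closest and 1 of the 4 most opposed genes stayed in place. In 2D, 9 to 30 reads of Prl2c2 per library limit the precision of its values there.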
